A study of Mus musculus with 8 samples.

Results

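The small heat shock proteins are chaperones built around an alpha-crystallin domain, and they were described here together with the co-chaperones that work with them in striated muscle. The set was given by name and holds 10 of the 19938 genes measured: Hspb1, Hspb2, Hspb3, Hspb6, Hspb7, Hspb8 and Cryab, which are small heat shock proteins, and Bag3, Hspa8 and Hsph1. RNA of the triceps was measured at 3 months of age in 4 Nf1Prx1 mutants and 4 wild-type controls, each animal on its own Affymetrix array (Mouse Gene 1.0 ST). Nf1Prx1 mice lack Nf1, which encodes the Ras inhibitor neurofibromin, in cells that express a Cre recombinase under the Prx1 limb enhancer, which is active in limb bud mesenchyme. Cells in which this Cre does not act, muscle fibres in large part among them, keep Nf1, so a difference in a fibre transcript is measured in a tissue and not in a population of mutant cells. The comparison addresses which transcripts of adult limb muscle differ when neurofibromin is lost in that lineage.

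Small heat shock proteins bind partly unfolded proteins and hold them in a state from which ATP-driven chaperones can refold them. In muscle they sit at the Z-disc and on desmin and titin, where contraction strains proteins. Hspb8 works in a complex with Bag3 and a member of the HSP70 family that hands damaged filamin C to the autophagy machinery, and Hsph1 exchanges the nucleotide of HSP70 proteins. Several of these genes are targets of heat shock factors, which bind repeats of a short element with GAA and its inverse TTC at their core.

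Promoter windows were available for 7 of the 10 genes in RefSeq's GRCm38.p6 table, from 250 bases before to 50 bases after a transcript start. Those of Hspb1, Hspb3, Hspb7, Bag3 and Hsph1, which passed the threshold once the replicate number was blocked on, are shown because these genes carry the differences described most fully here. Each is written 5′ to 3′ on the gene's strand, with matches in capitals to the heat shock element cores GAANNTTC or TTCNNGAA, searched on both strands, and to the MEF2 motif. Hspb1 lies on the plus strand at chr5:135887669-135887968, Hspb3 on the minus strand at chr13:113663627-113663926, Hspb7 on the plus strand at chr4:141420529-141420828, Bag3 on the plus strand at chr7:128523333-128523632, and Hsph1 on the minus strand at chr5:149636266-149636565.
Hspb1: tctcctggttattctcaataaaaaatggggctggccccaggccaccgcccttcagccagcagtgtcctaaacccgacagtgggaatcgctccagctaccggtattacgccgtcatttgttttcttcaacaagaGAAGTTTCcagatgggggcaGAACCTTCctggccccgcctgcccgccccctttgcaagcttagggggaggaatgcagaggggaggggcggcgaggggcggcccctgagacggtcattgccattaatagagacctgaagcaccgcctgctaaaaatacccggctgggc
Hspb3: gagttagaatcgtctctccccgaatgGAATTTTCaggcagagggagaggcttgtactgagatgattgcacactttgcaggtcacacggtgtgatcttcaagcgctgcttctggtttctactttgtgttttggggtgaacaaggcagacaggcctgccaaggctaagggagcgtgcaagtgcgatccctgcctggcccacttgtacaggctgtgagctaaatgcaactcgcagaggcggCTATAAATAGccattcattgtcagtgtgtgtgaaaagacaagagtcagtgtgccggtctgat
Hspb7: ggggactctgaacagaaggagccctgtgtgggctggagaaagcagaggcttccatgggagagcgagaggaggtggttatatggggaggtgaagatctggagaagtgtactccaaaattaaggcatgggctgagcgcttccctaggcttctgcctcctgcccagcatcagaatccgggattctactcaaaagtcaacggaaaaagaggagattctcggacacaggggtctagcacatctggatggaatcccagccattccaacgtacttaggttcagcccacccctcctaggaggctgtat
Bag3: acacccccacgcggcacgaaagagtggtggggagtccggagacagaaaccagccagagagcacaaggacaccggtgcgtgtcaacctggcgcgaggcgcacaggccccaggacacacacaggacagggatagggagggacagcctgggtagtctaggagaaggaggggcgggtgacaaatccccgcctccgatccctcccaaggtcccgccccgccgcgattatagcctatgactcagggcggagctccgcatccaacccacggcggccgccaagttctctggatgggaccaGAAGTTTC
Hsph1: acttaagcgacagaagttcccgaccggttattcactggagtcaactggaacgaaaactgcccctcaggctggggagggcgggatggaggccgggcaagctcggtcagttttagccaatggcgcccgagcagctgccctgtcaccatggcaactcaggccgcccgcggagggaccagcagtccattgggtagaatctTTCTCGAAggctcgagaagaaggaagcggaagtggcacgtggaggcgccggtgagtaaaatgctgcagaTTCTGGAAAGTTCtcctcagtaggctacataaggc

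Of the 9 windows that belong to these 7 genes, 7 held at least 1 such core, against 15.1% of all 32851 windows in the table (7.86% for GAANNTTC and 8.52% for TTCNNGAA). The windows with a match came from 6 of the 7 genes, namely Hspb1, Hspb3, Hspb6, Hspb8, Bag3 and Hsph1, and both windows of Hsph1 overlap each other. Hspb1 held 2 matches, GAAGTTTC with its first base at -117 from the start and GAACCTTC at -97. In Hsph1 TTCTGGAA and GAAAGTTC overlapped, so that the 2 forms run into each other after the start, and TTCTCGAA lay at -54. Hspb7 held no match to either form in this window. Only Hspb3 held the MEF2 motif, found in 3.19% of all windows, as CTATAAATAG at -12. That stretch also contains TATAAA, a sequence found in 13.6% of all windows and in 2 of the 9 windows here. A match describes letters in a window and no binding was measured. Hspb2, Cryab and Hspa8 had no entry and are named only. In RefSeq's GRCm38.p6 annotation Hspb2 lies within the annotated span of Cryab.

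The arrays carried the RNA of the labelled tissue. The 10 skeletal muscle markers averaged between 13.00 and 13.46 on Nf1Prx1 arrays and between 13.45 and 13.46 on control arrays (log2 level). Nf1 itself stood at 8.81, 8.63, 8.73 and 8.72 on Nf1Prx1 arrays 1 to 4 and at 8.82, 8.92, 8.98 and 8.69 on control arrays 1 to 4, and the groups overlapped (exact permutation test, two-sided, p = 0.171). Nf1Prx1 1 and control 1 stood apart: brown adipocyte markers lay 1.10 and 1.41 above the control mean on them. These markers lay at -0.54 to -0.42 on the other Nf1Prx1 arrays and at -0.49 to -0.45 on the other control arrays. Ucp1 and Cidea were higher on Nf1Prx1 1 and control 1 than on any other array. Cox7a1 was at 12.16 on Nf1Prx1 1, below its control mean of 12.76, and Elovl3 had a mean level under 7. The 8 measured neutrophil and erythroid markers lay 2.05 and 1.62 above the control mean on Nf1Prx1 1 and control 1. Alas2, the erythroid gene among them, was at 9.09 and 9.55 on these arrays, with a control mean of 9.11. Hbb-bs and Hba-a1 were not measured. Without a block, 0 of 19938 genes (0%) passed an adjusted p of 0.05 (limma with Benjamini-Hochberg adjustment) and 2709 had an unadjusted p under 0.05. With a block for the replicate number, 1667 passed, 670 higher (3.36% of all genes) and 997 lower.

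All 10 chaperone genes had a lower mean in Nf1Prx1 triceps, with a median log2 difference of -0.43, against 58.3% of all genes with a lower mean and a median of -0.04 over all genes. None of the 10 passed in the fit without a block. At an unadjusted p under 0.05, 4 of the 10 were lower, against 9.04% of all genes. With the replicate block 5 of the 10 passed, all lower, namely Hspb1, Hspb3, Hspb7, Bag3 and Hsph1, against 5.0% of all genes that passed in that direction. The count was 1 without the arrays numbered 1 (Hspb3, adjusted p = 0.0397), 3 without those numbered 2 (Hspb1, Hspb3 and Hspb7), and 0 without those numbered 3 or 4. With arrays weighted by the scatter of these same values 3 passed, namely Hspb3, Hspb7 and Hsph1, against 8.26% of all genes lower. The weights were 0.35, 0.27, 2.24 and 4.42 on Nf1Prx1 arrays 1 to 4, and 0.36, 1.05, 0.76 and 3.73 on control arrays 1 to 4. The weighted fit thus rested most on the array numbered 4 in each group. Mutant and control arrays did not overlap for 2 of the 10, Hspb3 and Hsph1, both lower, against 6.04% of all genes apart in that direction and 2.58% apart in the other. Within the replicate numbers 8 of the 10 were lower in the Nf1Prx1 array each time, against 21.3% of all genes, and the exceptions were Cryab and Hspa8. Without both arrays numbered 1 the median difference was -0.37. In whole muscle, fewer cells of a type and less RNA per cell cannot be told apart.

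**Figure D1:**
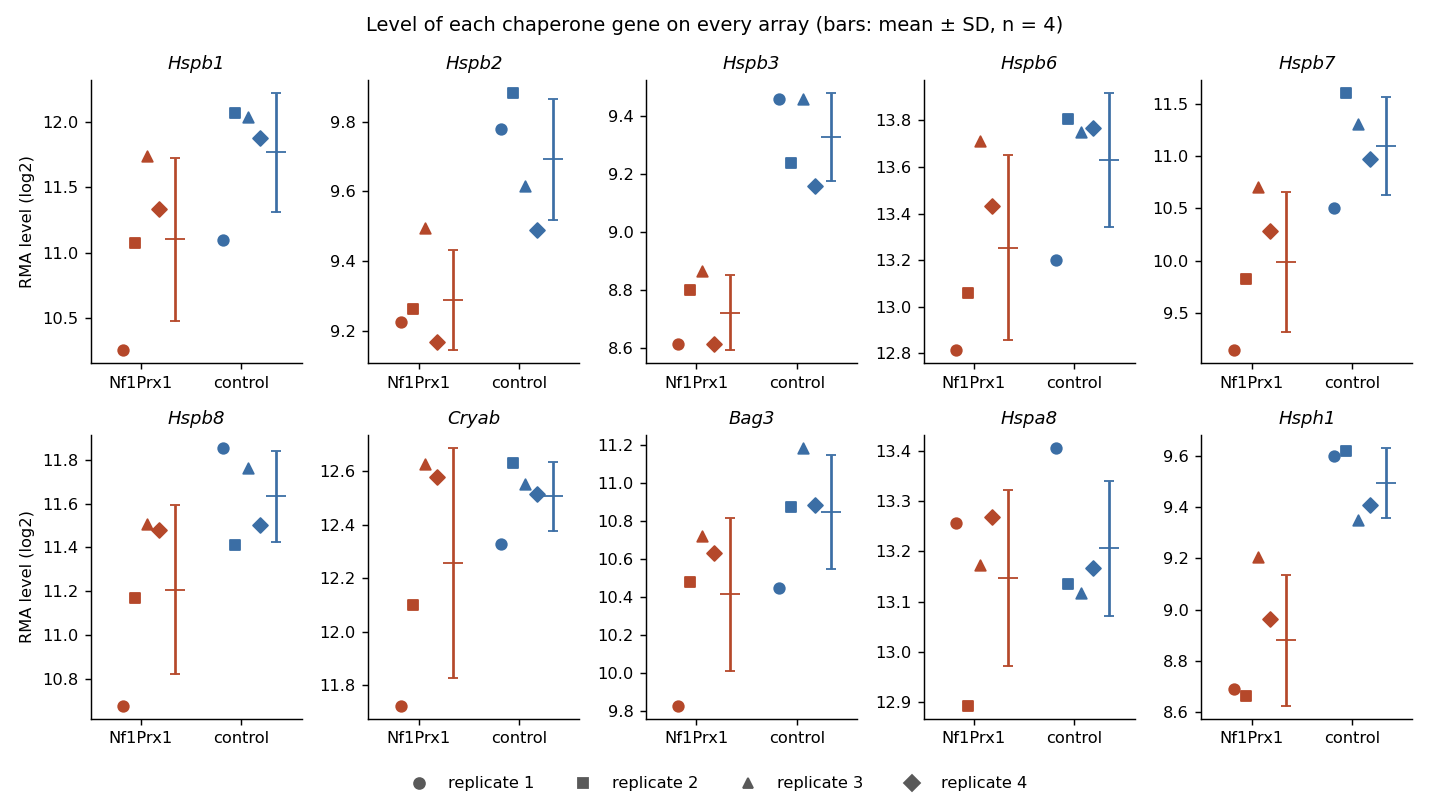
RMA level (log2, vertical axis, with its own range in each panel) of the 10 genes on each of the 4 Nf1Prx1 and 4 control arrays; marker shapes give the replicate number and bars the mean ± SD of each group. Only Hspb3 and Hsph1 separate the groups, whereas the groups overlap for the other genes.

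Hspb7, which binds filamin C and is found mainly in heart and skeletal muscle, showed the largest difference of the 10. Its level was 9.14, 9.83, 10.70 and 10.28 on Nf1Prx1 arrays 1 to 4, and 10.51, 11.61, 11.30 and 10.97 on control arrays 1 to 4. Only Nf1Prx1 3 exceeded a control array, which was control 1. The means were 9.99 ± 0.67 in Nf1Prx1 and 11.10 ± 0.47 in control triceps (SD, n = 4), a 2.16-fold lower level (log2 difference -1.11, 95% interval -1.88 to -0.34, limma adjusted p = 0.210, and adjusted p = 0.0210 with the replicate block). Within numbers 1 to 4 the differences were -1.36, -1.78, -0.60 and -0.69. Relative to the mean of the skeletal muscle markers on each array, the Hspb7 difference was -0.92, with a median of 0.16 over all genes on that scale.

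Hspb3 is a muscle protein that forms a complex with Hspb2. Its level was 8.61, 8.80, 8.86 and 8.61 on Nf1Prx1 arrays 1 to 4, and 9.46, 9.24, 9.46 and 9.16 on control arrays 1 to 4. All 4 mutant arrays lay below all 4 control arrays, and the SDs of 0.13 and 0.15 were small beside the log2 difference of -0.61. This is a 1.52-fold lower level (95% interval -0.85 to -0.36, limma adjusted p = 0.125, and adjusted p = 0.0161 with the replicate block). Hspb2, known for binding the kinase mutated in myotonic dystrophy, had levels of 9.23, 9.26, 9.50 and 9.17 on Nf1Prx1 arrays 1 to 4, and of 9.78, 9.88, 9.62 and 9.49 on control arrays 1 to 4. Here Nf1Prx1 3 and control 4 met, and the other mutant arrays lay below every control array. Hspb2 was 1.32-fold lower (log2 difference -0.40, 95% interval -0.67 to -0.14, limma adjusted p = 0.191), and it also missed the threshold with the replicate block (adjusted p = 0.0579). The differences of Hspb3 within numbers 1 to 4 were -0.85, -0.44, -0.59 and -0.55, and those of Hspb2 were -0.55, -0.62, -0.12 and -0.32.

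Hspb1, the widely expressed small heat shock protein that protects actin filaments, varied strongly among animals of both groups. It had levels of 10.26, 11.08, 11.74 and 11.33 on Nf1Prx1 arrays 1 to 4, and of 11.09, 12.07, 12.03 and 11.87 on control arrays 1 to 4. Control 1 was the low control and lay among the mutant arrays, so the groups overlapped. The log2 difference was -0.67 (95% interval -1.39 to 0.06, limma adjusted p = 0.408), a 1.59-fold lower level, and it passed with the replicate block (adjusted p = 0.0238), since Nf1Prx1 was lower within numbers 1 to 4 by -0.84, -0.99, -0.30 and -0.54 on the log2 scale. Without Nf1Prx1 1 the Hspb1 difference was -0.38. Another transcript cluster of Hspb1 gave a log2 difference of -0.69. A probe set of each cluster carried identical values in the authors' deposited table, so the clusters do not count as separate measurements.

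Hspb6, a small heat shock protein abundant in muscle, was at 12.81, 13.06, 13.71 and 13.43 on Nf1Prx1 arrays 1 to 4, and at 13.20, 13.80, 13.75 and 13.77 on control arrays 1 to 4. Control 1 was again low, below Nf1Prx1 3 and Nf1Prx1 4. The log2 difference was -0.38 (95% interval -0.86 to 0.10), with a limma adjusted p = 0.484 that stayed above the threshold with the replicate block (adjusted p = 0.0976), and the Hspb6 difference was -0.23 without Nf1Prx1 1. Cryab, alpha-B-crystallin, which binds desmin and titin, was at 11.72, 12.10, 12.63 and 12.58 on Nf1Prx1 arrays 1 to 4, and at 12.33, 12.63, 12.55 and 12.51 on control arrays 1 to 4. Nf1Prx1 1 and Nf1Prx1 2 were below every control array, whereas Nf1Prx1 3 and Nf1Prx1 4 were within 0.08 of the control array of the same number, and above it. The Cryab difference of -0.25 had a 95% interval of -0.69 to 0.19 (limma adjusted p = 0.642), and the SD was 0.43 among mutants and 0.13 among controls. Without Nf1Prx1 1 the Cryab difference was -0.07, and without both arrays numbered 1 it was -0.13.

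Hspb8 and Bag3 act together in the disposal of damaged Z-disc proteins. Bag3, the co-chaperone that links Hspb8 to HSP70, was at 9.83, 10.48, 10.72 and 10.63 on Nf1Prx1 arrays 1 to 4, and at 10.45, 10.87, 11.19 and 10.89 on control arrays 1 to 4. Only control 1 lay within the mutant range. Bag3 was 1.35-fold lower (log2 difference -0.43, 95% interval -0.92 to 0.06, limma adjusted p = 0.426), and it passed with the replicate block (adjusted p = 0.0319), with differences of -0.62, -0.40, -0.46 and -0.26 within numbers 1 to 4. Without Nf1Prx1 1 the Bag3 difference was -0.24. Hspb8 was at 10.68, 11.17, 11.51 and 11.48 on Nf1Prx1 arrays 1 to 4, and at 11.85, 11.41, 11.76 and 11.50 on control arrays 1 to 4. Most of its log2 difference of -0.43 (95% interval -0.86 to 0.01, limma adjusted p = 0.378) came with the arrays numbered 1: the differences within numbers 1 to 4 were -1.18, -0.24, -0.26 and -0.03. The Hspb8 difference was -0.25 without Nf1Prx1 1 and -0.18 without both arrays numbered 1, and Hspb8 missed the threshold with the replicate block as well (adjusted p = 0.193).

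Hspa8, the constitutive HSP70 of the cytosol, and Hsph1, the HSP110 protein that recharges HSP70 in protein folding, are described together. Hsph1 was at 8.69, 8.66, 9.21 and 8.96 on Nf1Prx1 arrays 1 to 4, and at 9.60, 9.62, 9.35 and 9.41 on control arrays 1 to 4. The groups did not overlap, and the narrowest gap was between Nf1Prx1 3 and control 3. Hsph1 was 1.53-fold lower (log2 difference -0.61, 95% interval -0.93 to -0.30, limma adjusted p = 0.139, and adjusted p = 0.0447 with the replicate block). Hspa8 was at 13.26, 12.89, 13.17 and 13.27 on Nf1Prx1 arrays 1 to 4, and at 13.41, 13.13, 13.12 and 13.17 on control arrays 1 to 4. The Hspa8 groups overlapped in part, with Nf1Prx1 2 below every control array and control 1 above every mutant array. Its difference of -0.06 had a 95% interval of -0.32 to 0.20 (limma adjusted p = 0.878), and its 2 other clusters with Hspa8 as their only gene gave -0.03 and -0.03. Hspa8 has processed copies in the genome with nearly the same sequence, so the cluster level may hold signal of those copies.

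**Figure D2:**
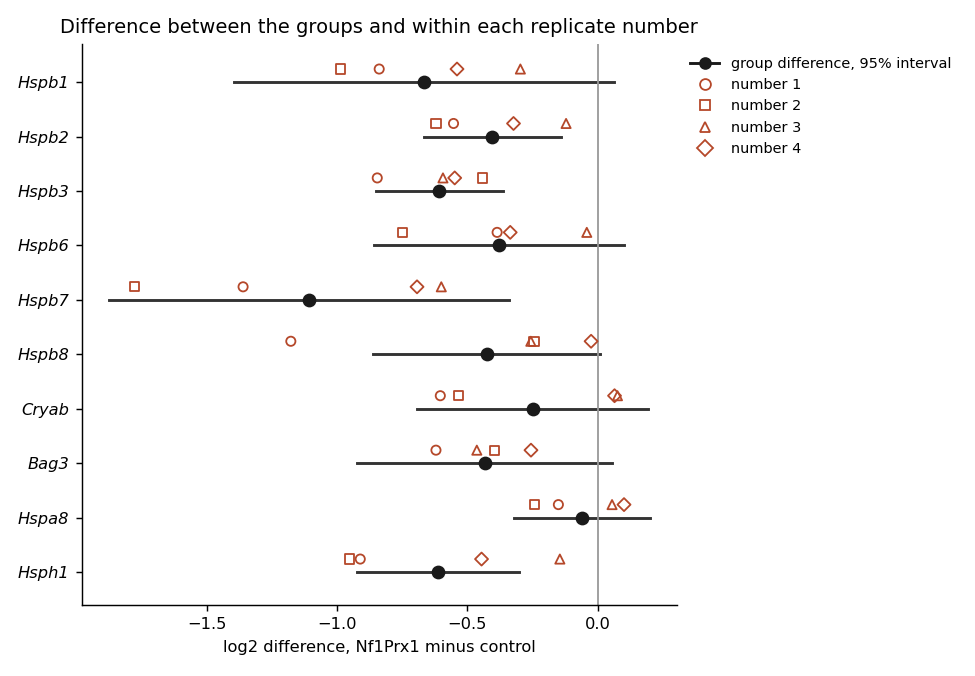
Log2 difference (Nf1Prx1 minus control, horizontal axis) of the 10 genes: filled points with lines are the group difference and its 95% interval from the fit without a block, and open symbols the difference within each replicate number. For Hspb7 the 4 numbers lie between -1.78 and -0.60, while for Cryab and Hspa8 they lie on both sides of 0.

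Averaged over the 7 small heat shock proteins, Nf1Prx1 arrays 1 to 4 lay at -1.03, -0.62, -0.14 and -0.40 relative to the control mean, and control arrays 1 to 4 at -0.21, 0.14, 0.12 and -0.05. Nf1Prx1 1 was the lowest mutant array and control 1 the lowest control array, and Nf1Prx1 3 lay above control 1. Over the 8 arrays, each gene's levels centred on their own mean, Cryab was nearest to the tropomyosin gene Tpm2 among 9712 genes, at a root mean square distance of 0.04 on the log2 scale. Next came Btbd2, Entpd4, Apobec2 and Atp5a1, at distances of 0.05 to 0.07. Bag3 was nearest to Mapre3 among 7713 genes, followed by Lbx1, Esrrg, Ubqln4 and Samd4, all at distances of 0.05 to 0.06. None of these 10 genes is one of the chaperones described here.

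Fibre type and tissue markers differed among the same arrays. The 9 slow-fibre markers averaged 8.36 to 10.19 on Nf1Prx1 arrays and 9.53 to 10.13 on control arrays, and relative to the control mean Nf1Prx1 arrays 1 to 4 lay at -1.30, -1.46, 0.31 and -1.52. Their median difference was -1.17, and 4 of the 9 passed as lower with the replicate block, against 5.0% of all genes. None of the 9 had a mean level under 7, and their part in the chaperone differences was not tested across the arrays. The slow-fibre mean on Nf1Prx1 3 was above that of every control array. Every chaperone gene except Hspa8 also had its highest mutant level on Nf1Prx1 3. On that array Hspb3 and Hsph1 were below every control array, and each of the other chaperone genes was above at least 1 control array. The skeletal muscle markers lay at -0.45, -0.24, 0.00 and -0.07 on Nf1Prx1 arrays 1 to 4, whereas control arrays ranged from -0.01 to 0.01. The 7 measured adipocyte markers were at 0.76 to 2.98 on Nf1Prx1 arrays and at -0.75 to 1.82 on control arrays, with all 7 higher in mean level in Nf1Prx1. All 8 fibroblast markers had a higher mean in Nf1Prx1 (median difference 0.48), and their mean lay at 0.02 to 0.79 on Nf1Prx1 arrays and at -0.41 to 0.63 on control arrays. All 8 macrophage markers likewise had a higher mean (median difference 0.50), at 0.17 to 0.70 on Nf1Prx1 arrays and at -0.41 to 0.65 on control arrays. With the replicate block 7 adipocyte, 5 fibroblast and 4 macrophage markers passed as higher, against 3.36% of all genes. The part of these cell types in the chaperone differences was not tested. Once each array was set relative to its skeletal muscle markers, the median over the 10 chaperone genes was -0.24 and the median over all genes was 0.16. On that scale Hspb1 and Hspb7 passed with the replicate block (adjusted p = 0.0410 and 0.000545), and Hspb3, Bag3 and Hsph1 did not (adjusted p = 0.0744, 0.309 and 0.0756).

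**Figure D3:**
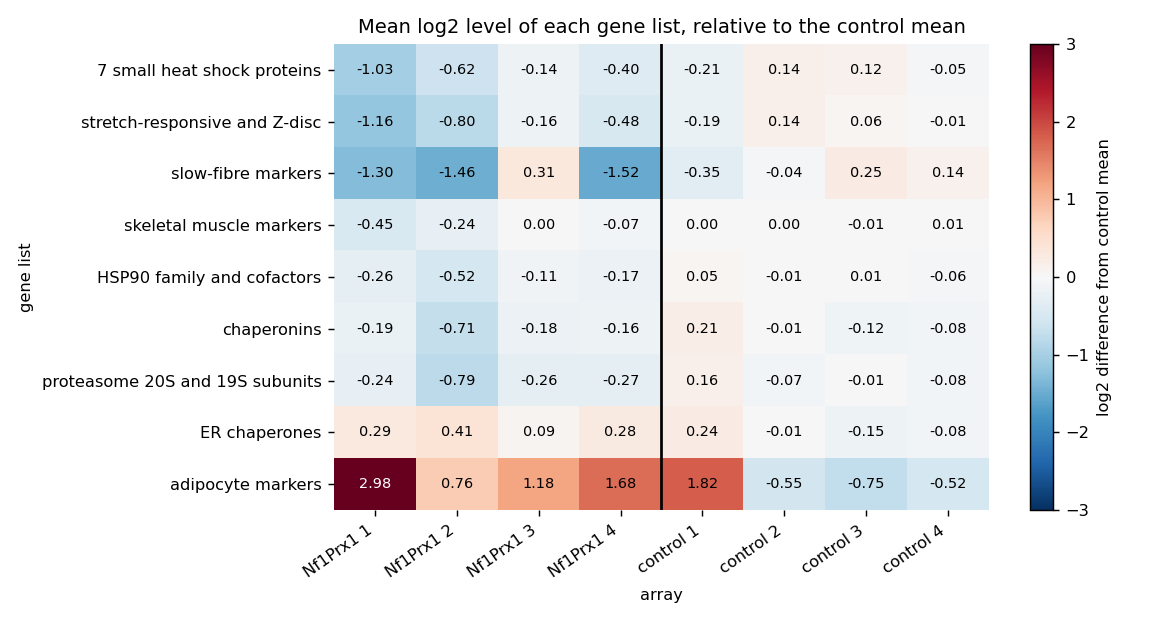
Mean log2 level of 9 gene lists (rows) on each array (columns, Nf1Prx1 left of control), relative to the control mean, with the value printed in each cell and coloured from -3 to 3. The row of the small heat shock proteins and that of the Z-disc genes are lowest on Nf1Prx1 1, at -1.03 and -1.16, whereas ER chaperones are above the control mean on all 4 Nf1Prx1 arrays. ER chaperones are also above it on control 1, at 0.24, where they exceed Nf1Prx1 3 at 0.09.

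Below the gene level, the authors' deposited table listed 77 probe sets for the 10 genes, 67 of them with a lower mean in Nf1Prx1 muscle, against 53.4% of all 234873 probe sets. That table states 4 samples per group, but its SDs and F values imply 5, so its columns were not matched to the 8 arrays and its values are the authors'. Lower means held for all 11 probe sets of Hspb1, all 5 of Hspb7, all 4 of Hspb6 and of Hspb8, and all 3 of Hspb2 and of Hspb3 in the authors' deposited table. For Bag3 7 of 8 were lower, the other was higher at 0.13, and none had an authors' unadjusted p under 0.05. For Hsph1 21 of 22 were lower, with a median of -0.48, and 10 of the 22 were lower at the authors' unadjusted p under 0.05, against 7.42% of all probe sets. The strongest Hsph1 probe set, the 14th in number order (10535918), had a mean of 8.9 in Nf1Prx1 and 9.8 in control muscle in the authors' deposited table, with a maximum of 9.3 in Nf1Prx1 and a minimum of 9.5 in control muscle. It was 1 of 3 Hsph1 probe sets whose extremes did not overlap, all lower, against 1.38% of all probe sets. Its adjusted p over all probe sets, computed here, was 0.146, and no probe set of the 10 genes passed or was in either of the authors' lists.

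The 2 genes without a steady difference showed mixed probe sets as well. In the authors' deposited table Hspa8 had 3 lower and 6 higher probe sets of 9, with a median of 0.07, and 1 probe set each of Hspa8 and Cryab was higher at an unadjusted p under 0.05, against 7.23% of all probe sets. Cryab had 6 lower and 2 higher of 8, with a median of -0.12. The 1st Cryab probe set in number order (10585216) was 1.63-fold higher in the authors' deposited table, at 7.0 in Nf1Prx1 and 6.3 in control muscle. The other higher one (10585217) was at 10.1 in Nf1Prx1 and 9.9 in control muscle, a log2 difference of 0.16. The 6 brightest probe sets of Cryab, at means of 11.5 to 13.6 in Nf1Prx1 and 11.7 to 13.8 in control muscle, were between -0.23 and -0.09. The position of the 1st probe set in the transcript is not given in the sources used here. The probe set just before it in number (10585215) is named for Hspb2. The medians of the authors' deposited table lay nearer to 0 than the cluster differences for all of Hspb7 (-0.60 beside -1.11), Hspb1 (-0.39 beside -0.67), Bag3 (-0.13 beside -0.43), Hspb6 (-0.25 beside -0.38), Hspb8 (-0.32 beside -0.43), Cryab (-0.12 beside -0.25), Hsph1 (-0.48 beside -0.61), Hspb3 (-0.51 beside -0.61) and Hspb2 (-0.36 beside -0.40). For Hspa8 the signs differed (0.07 beside -0.06). The SDs and F values of that table imply 5 samples per group, so these medians and the cluster differences may rest on different samples.

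**Figure D4:**
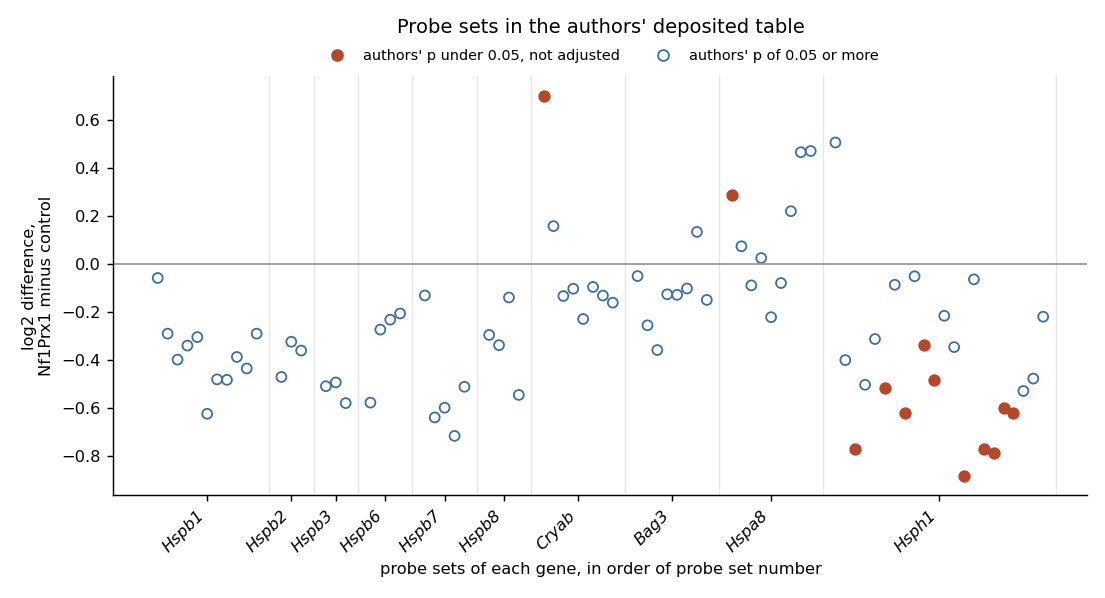
Log2 difference (Nf1Prx1 minus control, vertical axis) of each of the 77 probe sets of the 10 genes in the authors' deposited table, in order of probe set number within a gene; filled points have an unadjusted authors' p under 0.05. The filled points are 10 lower probe sets of Hsph1 and 1 higher probe set each of Cryab and Hspa8.

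The other lists of chaperones and their partners had medians between -0.37 and -0.04. No gene of these lists passed in the fit without a block. Over all genes, 58.3% had a lower mean, 6.04% were apart and lower, and 5.0% passed as lower and 3.36% as higher with the replicate block. Relative to the skeletal muscle markers, where the median of all genes was 0.16, the list medians were 0.01 for the rest of the HSP70 family, 0.01 for J-domain proteins, 0.03 for BAG proteins and exchange factors, 0.16 for the other small heat shock proteins, and -0.17 to 0.00 for the rest. Of 10 measured members of the rest of the HSP70 family, 9 had a lower mean, with a median of -0.18, and Hspa1l and Hspa1a passed with the replicate block (5.0% of all genes passed as lower). The median was -0.08 without Nf1Prx1 2, -0.12 without control 1 and -0.06 with array weights. Hspa9, the mitochondrial HSP70, differed by -0.20 and did not pass. Hspa1l was at 7.78, 7.87, 8.77 and 8.34 on Nf1Prx1 arrays 1 to 4, and at 9.81, 9.56, 9.32 and 9.50 on control arrays 1 to 4 (log2 difference -1.36, limma adjusted p = 0.121, and adjusted p = 0.0177 with the replicate block). Hspa1a, the stress-inducible HSP70, was at 8.56, 8.13, 8.49 and 8.32 on Nf1Prx1 arrays 1 to 4, and at 9.62, 8.64, 8.71 and 8.89 on control arrays 1 to 4 (log2 difference -0.59, limma adjusted p = 0.273, and adjusted p = 0.0409 with the replicate block). The groups did not overlap for either gene, and these genes lie close together and are alike in sequence, so signal may be shared among them and Hspa1b, which had no cluster of its own.

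Of 12 measured HSP90 proteins and cofactors 10 had a lower mean (median -0.37), against 58.3% of all genes, and the groups were apart for 6, all lower, against 6.04% of all genes. The median was -0.21 without Nf1Prx1 2 and -0.16 with array weights. With the replicate block Ahsa1, an activator of HSP90, Ptges3 and Unc45b, a myosin chaperone, passed as lower, and Fkbp5, a cofactor of steroid receptors, passed as higher (log2 differences -0.49, -0.41, -0.74 and 0.51). Fkbp4, an HSP90 cofactor, differed by -0.44 and did not pass (adjusted p = 0.0775 with the replicate block). Unc45b and Fkbp5 were named after their values were seen. Of 15 J-domain proteins, which bring clients to HSP70, 11 had a lower mean (median -0.19, and -0.10 without Nf1Prx1 2), and Dnajb12, Dnaja4 and Dnajb5 passed with the block, the last of them named after its values were seen (log2 differences -0.38, -0.74 and -0.64). Dnajb2 differed by -0.36 and did not pass (adjusted p = 0.0509 with the replicate block). All 10 chaperonin genes had a lower mean (median -0.30, and -0.19 without Nf1Prx1 2), and 0 of them passed with or without the block, although 5 had an unadjusted p under 0.05 in the fit without a block and 3 passed with array weights. Among them Cct8, Cct6a and Tcp1, subunits of the cytosolic chaperonin, differed by -0.54, -0.40 and -0.40. Of 8 further BAG proteins and exchange factors 6 had a lower mean (median -0.16, with -0.09 without Nf1Prx1 2 and -0.02 without control 1), and Bag2 and Bag6 passed with the block (log2 differences -0.44 and -0.40), while Hspbp1 differed by -0.23 and did not pass.

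Among the heat shock factors, Hsf2 was at 8.49, 8.14, 8.96 and 8.54 on Nf1Prx1 arrays 1 to 4, and at 8.99, 9.11, 9.42 and 9.09 on control arrays 1 to 4. The groups did not overlap (log2 difference -0.62, limma adjusted p = 0.181, and adjusted p = 0.0198 with the replicate block). Hsf4 and Hsbp1 differed by -0.24 and -0.15 and did not pass, and Hsf1 had no cluster with 1 gene symbol. All 10 partners and clients of chaperone-assisted autophagy had a lower mean (median -0.20), though Ttn differed by only -0.01. In the fit without a block 1 of the 10 was lower at an unadjusted p under 0.05, against 9.04% of all genes. The groups were apart for 1, which was lower, against 6.04% of all genes. Over 23 alternatives the list median lay between -0.27 and -0.0036. Filamin C, the client of Bag3 and Hspb8, was at 9.51, 10.85, 11.44 and 11.16 on Nf1Prx1 arrays 1 to 4, and at 10.71, 12.20, 11.99 and 11.69 on control arrays 1 to 4, named after its values were seen. Its gene Flnc passed with the block (log2 difference -0.91, limma adjusted p = 0.412, and adjusted p = 0.0201 with the replicate block), as did Dmd (dystrophin) and Synpo2, which takes part in filamin disposal (log2 differences -0.57 and -0.46), whereas Sqstm1, an autophagy receptor, differed by -0.37 and did not pass. The 4 other small heat shock protein genes, Cryaa, Hspb9, Hspb11 and Odf1, had a median of -0.04, which was 0.02 without Nf1Prx1 1, with 0 passing in either fit and 0 at an unadjusted p under 0.05 in the fit without a block, and differences of 0.12 for Cryaa, -0.13 for Hspb9 and -0.26 for Hspb11. Hspb11 and Odf1 were at a mean level under 7.

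Set beside lists of related function, the chaperones were not alone in being lower. The 16 stretch-responsive and Z-disc genes all had a lower mean (median -0.58), against 58.3% of all genes, and 6 passed with the replicate block, against 5.0% of all genes lower. The median was -0.37 without Nf1Prx1 1 and -0.36 with array weights. Xirp1, an actin-binding Z-disc protein, was the member with the smallest p, at a log2 difference of -1.11 (limma adjusted p = 0.125, and adjusted p = 0.00788 with the replicate block). The 26 proteasome subunits all had a lower mean (median -0.38, and -0.23 with array weights), and 6 passed with the block, while Psmc2, an ATPase of the regulatory particle, had a difference of -0.37 (limma adjusted p = 0.158, and adjusted p = 0.0522 with the replicate block). ER chaperones ran the other way, with 14 of 15 higher in mean (median 0.28, and 0.11 without Nf1Prx1 2) and 2 passing with the block, against 3.36% of all genes higher, among them Pdia3, a disulfide isomerase, at 0.72 (limma adjusted p = 0.333, and adjusted p = 0.0161 with the replicate block). Relative to the control mean, the ER chaperones averaged 0.09 to 0.41 on Nf1Prx1 arrays and -0.15 to 0.24 on control arrays, so the groups overlapped. Whether any of these lists differed from the 10 chaperone genes was not tested.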

How the data were processed

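Each array held the total RNA of 1 animal's triceps. Per the labels and the submitters' processing notes, the authors made the deposited log2 values per transcript cluster by RMA in Affymetrix Expression Console, with versions not given in the sources used here. Per the file headers, a further deposited table gives, for 234873 probe sets, the authors' group means, SDs, minima and maxima of log2 intensity, an unadjusted p-value from an analysis of variance, a ratio of control over mutant and an F score. Its software is not given in the sources used here, and differences from it are printed as minus log2 of that ratio.

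The platform annotation gave a single symbol to 21789 of 35556 clusters, several symbols to 1621, and did not list 12146. Symbols were updated through the Entrez ID (21698 matched), and the cluster with the highest mean stood for each of 19938 genes. Dim genes were kept. The comparison used the two-sided moderated test of limma 3.58.1 (R 4.3.3), adjusted by Benjamini-Hochberg over all genes at a threshold of 0.05. Tables were handled with pandas 2.3.3 and figures drawn with matplotlib 3.10.9. The fits were also run on simulated data with independent noise and no effect of the replicate number, which cannot bear on the pairing of the real arrays. The number of arrays limits the precision.

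The titles number the arrays 1 to 4 in each group, with no stated meaning. Arrays of the same number deviated together from their group means, with correlations over genes of 0.71, 0.57, 0.39 and 0.296 for numbers 1 to 4. Arrays of different numbers had correlations of -0.53 to 0.303. The highest of these, 0.303, was between Nf1Prx1 4 and control 3, so the values do not set the pair of number 4 apart. The numbers were taken as pairs in the block. This pairing is read from the values, and adjusted p values with the replicate block may be too small.

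The 10 genes, the pathway and marker lists and the rule for named genes were chosen with earlier results of these data known. The rule names the 10 genes, Nf1, up to 3 genes with the smallest p in each chaperone list, 1 in each list set beside them, and the 5 genes nearest to Cryab and to Bag3 by root mean square distance of centred levels, among genes with a mean of at least 7 and an SD at least 0.5 times that of the member. Alternatives were the replicate block, quantile normalization, median centring, leaving out genes with a mean under 7, array weights, a trended robust prior, the mean of all clusters, leaving out arrays, and leaving out probe sets with both means under 6. After the data were seen, quantile normalization with the block and scaling to the skeletal muscle markers were added.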

Additional observations from a re-analysis of the deposited data

Results flagged for a closer look

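Among the 20 groups of 4 arrays formed by the 10 genes, 2 held an array far from the others, and chance alone places about 1 in 20 groups beyond this limit. Hspb6 was at 13.20 on control 1, with the nearest control array at 13.75, and this gap was 0.913 of the range of the control arrays. Hspa8 was at 13.41 on control 1, with the nearest control array at 13.17, and this gap was 0.830 of the range; both gaps passed Dixon's 95% limit, the second only narrowly. Control 1 is also an array with brown adipocyte and neutrophil transcripts, and the part of these transcripts in either value was not tested.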

How the results depend on the processing

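Over 23 alternatives the differences of Hspb1, Hspb2, Hspb3, Hspb6, Hspb7, Hspb8, Bag3 and Hsph1 stayed below 0, with Hspb7 between -1.35 and -0.76 and Hsph1 between -0.77 and -0.42. The number of genes passing was 0 without a block. It was 5 with quantile normalization (all higher). With array weights, which were largest on the arrays numbered 4, it was 3070 (1424 higher, 1646 lower). It was 96 without both arrays numbered 1 (81 higher, 15 lower), and 0 to 3 when 1 array was left out, with 3 only without Nf1Prx1 3. With the replicate block, which blocks on the pairing of same-numbered arrays, 1667 genes passed, and 719, 1202, 206 and 50 without numbers 1, 2, 3 and 4. The block with quantile normalization gave 1406, and the block relative to the skeletal muscle markers 1743 (1514 higher, 229 lower), both chosen after seeing the data. Of the 10 chaperone genes 5 passed with the block, 3 with array weights, 1, 3, 0 and 0 with the block without numbers 1, 2, 3 and 4, 3 with the block and quantile normalization, 2 with the block relative to the muscle markers, and 0 in every fit without block or weights. Their median was -0.30 with array weights and -0.24 relative to the muscle markers, with or without the block, and -0.54 to -0.32 when 1 array was left out. The muscle-marker scale moved the median of all genes to 0.16, with 21.4% of genes lower. Cryab was at 0.0071 with array weights. Hspa8 was at 0.055 with array weights, 0.0077 without control 1, 0.026 without Nf1Prx1 2, and 0.0021 with the block without number 2. It was at 0.13 relative to the muscle markers with or without the block, where Nf1 was at 0.063, and leaving out 1 array gave -0.099 to 0.026 for Hspa8. The causes were not tested. Only 4 arrays a group limit the precision, and dim probes have no detection call here.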
